A study of Caenorhabditis elegans with 2 samples.

Results

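The hypoxia response genes hif-1, egl-9, rhy-1 and vhl-1 were examined in a map of SMA-9 binding in second larval stage (L2) Caenorhabditis elegans. The 4 genes were taken by name from 19973 annotated protein-coding genes of WBcel235, with earlier results of these data known. Each was given every peak with a summit in the gene body or up to 5 kb upstream, a rule that placed 18 of 30000 pooled peaks. Binding was measured by chromatin immunoprecipitation and sequencing (ChIP-seq) of an eGFP fusion of SMA-9, a zinc finger protein that works with SMAD proteins in BMP-like signalling. All animals were whole L2 larvae of mixed sex from the strain OP130, which carries unc-119(ed3) III and the integrated transgene wgIs130, in 1 group with 2 biological replicates. The labels do not say in which tissues the fusion was made, and whole animals average over all cell types.

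HIF-1 is the transcription factor that turns on the response to low oxygen. In normal oxygen EGL-9, a prolyl hydroxylase, modifies HIF-1, and VHL-1, the homologue of the von Hippel-Lindau tumour suppressor, then directs it to a ubiquitin ligase for destruction. RHY-1 is a membrane protein that holds HIF-1 activity down, and egl-9 and rhy-1 are themselves induced by HIF-1, which closes a feedback loop. Genes induced by HIF-1 often carry a hypoxia response element with the core ACGTG or the core GCGTG, and in worms TACGTG is a common form.

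The strongest SMA-9 peaks of hif-1 and egl-9 were both in the authors' thresholded list of 125 peaks. That of rhy-1 came 5 ranks after the end of this list, and vhl-1 had weak peaks only. The sequences below are 200 bp around the summits of the strongest peak of each gene and of the second peak of hif-1, shown because the motifs described later lie in them. They come from the RefSeq assembly of WBcel235 (ce11 coordinates), plus strand, 5' to 3'. Capitals mark the core ACGTG, the core GCGTG and the repeat GAGAGA, each read on either strand. The window of hif-1 is V:20778324-20778523 and that of its second peak is V:20776843-20777042. The windows of the others are V:10466655-10466854 for egl-9, II:9160335-9160534 for rhy-1 and X:11305517-11305716 for vhl-1.
hif-1 (rank 39): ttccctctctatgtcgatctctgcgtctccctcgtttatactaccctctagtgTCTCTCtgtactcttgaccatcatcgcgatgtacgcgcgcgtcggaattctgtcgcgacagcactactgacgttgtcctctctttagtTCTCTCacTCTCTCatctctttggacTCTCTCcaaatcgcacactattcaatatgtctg
hif-1 (rank 438): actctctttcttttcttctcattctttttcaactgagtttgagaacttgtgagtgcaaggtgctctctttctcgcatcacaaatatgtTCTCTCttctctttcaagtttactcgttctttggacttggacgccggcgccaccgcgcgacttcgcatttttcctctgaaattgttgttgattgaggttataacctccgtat
egl-9 (rank 54): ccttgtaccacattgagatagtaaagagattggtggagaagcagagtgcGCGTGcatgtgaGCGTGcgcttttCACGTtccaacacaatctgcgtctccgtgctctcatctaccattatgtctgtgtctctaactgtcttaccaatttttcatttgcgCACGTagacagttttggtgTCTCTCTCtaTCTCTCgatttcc
rhy-1 (rank 130): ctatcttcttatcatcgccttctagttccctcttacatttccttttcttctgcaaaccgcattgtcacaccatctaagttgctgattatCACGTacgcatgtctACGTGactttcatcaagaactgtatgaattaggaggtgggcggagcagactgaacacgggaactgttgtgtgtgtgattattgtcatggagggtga
vhl-1 (rank 8839): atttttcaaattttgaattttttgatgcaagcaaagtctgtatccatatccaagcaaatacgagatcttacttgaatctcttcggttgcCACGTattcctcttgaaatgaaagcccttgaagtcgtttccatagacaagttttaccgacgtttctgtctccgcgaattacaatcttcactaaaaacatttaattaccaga

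Peak signal is the authors' value per peak with no stated scale, and each list has its own scale. The median signal was 14.1 in the pooled list, 9.50 in replicate 1 and 6.34 in replicate 2, so each signal is also given as a ratio to the median of its list. Ranks count from the highest signal, and every relaxed list holds 30000 peaks, many of them background by the authors' own description. Since these genes were selected on pooled signal and rank in these same lists and there is 1 group, signal, rank and thresholding are described and not tested. A thresholded summit fell in the window of 2 of the 4 genes, and such a summit fell in the windows of 0.766% of all protein-coding genes (153 of 19973) and of 0.849% of annotated genes of every class. Read depth is unknown from these lists.

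hif-1 (WBGene00001851, V:20780407-20785260, plus strand) had the strongest peak of the 4 genes, with a pooled signal of 50.1 at V:20778232-20778615. This is rank 39 and 3.54 times the median of the pooled list. The overlapping peak had a signal of 28.6 in replicate 1 (rank 73, 3.01 times the median) and of 22.2 in replicate 2 (rank 21, 3.50 times the median). Both replicates thus placed it among their strongest peaks, and the summits lay 11 and 1 bp from the pooled summit. The summit lay between genes, 1983 bp upstream of the first annotated start of hif-1. The 6 annotated transcripts of hif-1 begin at 4 positions, and the summit was 4048 bp upstream of the last of these. The divergent gene F38A6.4 shares the 5037 bp gap that holds the peak, and its start was farther from the summit, at 3055 bp. F38A6.5, the next gene on that side, also has the summit within 5 kb upstream, at 4677 bp. The data do not assign the peak to one of these genes.

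A second peak upstream of hif-1 was strong in replicate 1 alone. At V:20776751-20777134 it had a pooled signal of 26.9 (rank 438). In replicate 1 the signal was 19.7 (rank 345, 2.07 times the median), while in replicate 2 it was 5.41 (rank 22110, 0.854 times the median). Its summit was 3464 bp upstream of hif-1 but 1574 bp upstream of F38A6.4, so by distance it lies nearer to F38A6.4. The third pooled peak, 4250 bp upstream, had a signal of 13.4 (rank 18019), below the median of the list. No pooled summit lay in the body of hif-1 (0 of 3).

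egl-9 (WBGene00001178, V:10468517-10476915, plus strand) had its strongest peak at V:10466563-10466946, with a pooled signal of 45.7. This is rank 54 and 3.23 times the median. The signal was 26.0 in replicate 1 (rank 98, 2.74 times the median) and 19.8 in replicate 2 (rank 32, 3.12 times the median). As at hif-1, the peak was among the 125 strongest of both replicates. The summit lay 1762 bp upstream of the first start of egl-9, inside exons of the noncoding RNA genes F22E12.10 (plus strand) and F22E12.9 (minus strand). These genes are each 145 bp long and overlap each other, and the summit was 86 bp and 69 bp from their starts. The start of the coding gene F22E12.3 was 3379 bp away, so that the peak is also in its window. The noncoding RNA gene F22E12.7, with its start 4758 bp away, has the summit in its window too. F22E12.10 and F22E12.9 are nearer than egl-9, and the lists do not show which of these genes the binding concerns.

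Within egl-9 itself the peaks were weaker and differed between replicates. A pooled peak of signal 21.0 (rank 2434) had its summit in an intron 83 bp past the first start. In replicate 2 the peak that overlaps it had a signal of 13.4 (rank 299, 2.12 times the median), with the summit 129 bp from the pooled one. In replicate 1 the overlapping peak had 9.92 (rank 12977, 1.04 times the median). Its summit was 203 bp from the pooled one and lay between genes, 120 bp upstream of the first start. The other 3 pooled peaks in the gene body ranked 9586, 19045 and 19087. The last of these lay in a coding exon, and neither it nor the peak of rank 19045 was overlapped by a peak of replicate 1. The peak of rank 19045 was matched to the same replicate 2 peak, of rank 299, as the peak of rank 2434.

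rhy-1 (WBGene00012324, II:9161379-9163448, plus strand) had its strongest peak just outside the thresholded list. It lay at II:9160243-9160626 with a pooled signal of 34.2, rank 130 and 2.42 times the median. The last thresholded peak, of rank 125, had a signal of 34.6, and the peak of rank 126 had 34.5. In replicate 1 the rhy-1 peak had a signal of 21.1 (rank 233, 2.22 times the median) and in replicate 2 it had 12.9 (rank 401, 2.04 times the median). Neither replicate placed it among its 125 strongest peaks. For comparison, 63 of the 125 thresholded peaks had a rank beyond 401 in at least 1 replicate or were absent from one. The summit lay between genes, 944 bp upstream of the only annotated start of rhy-1, in the 1394 bp gap between oac-54 and rhy-1. No other annotated gene had this summit in its body or within 5 kb upstream.

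A second rhy-1 peak lay at the start of the gene. At II:9161135-9161518, with the summit 52 bp upstream of the start, it had a pooled signal of 26.5 (rank 492). The signal in replicate 2 was 11.6 (rank 927, 1.83 times the median) and that in replicate 1 was 12.3 (rank 5735, 1.29 times the median). The remaining 5 of 7 pooled peaks ranked from 7700 to 25119, with signals of 16.9 to 11.8. Of these, 3 lay in the gene body and 2 upstream.

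vhl-1 (WBGene00006922, X:11307356-11308518, plus strand) had 3 pooled peaks, and all were weak. The strongest had a signal of 16.3 (rank 8839, 1.15 times the median), with its summit 1739 bp upstream in a coding exon of the neighbouring gene F08G12.1. In replicate 1 it had a signal of 14.6 (rank 2244, 1.54 times the median), and no peak of replicate 2 overlapped it. The other peaks, at 3273 and 4292 bp upstream, also lay in F08G12.1, with signals of 13.5 (rank 17497) and 10.9 (rank 29975). That of rank 29975 was found in neither replicate. No pooled summit lay in the body of vhl-1 (0 of 3).

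**Figure D1:**
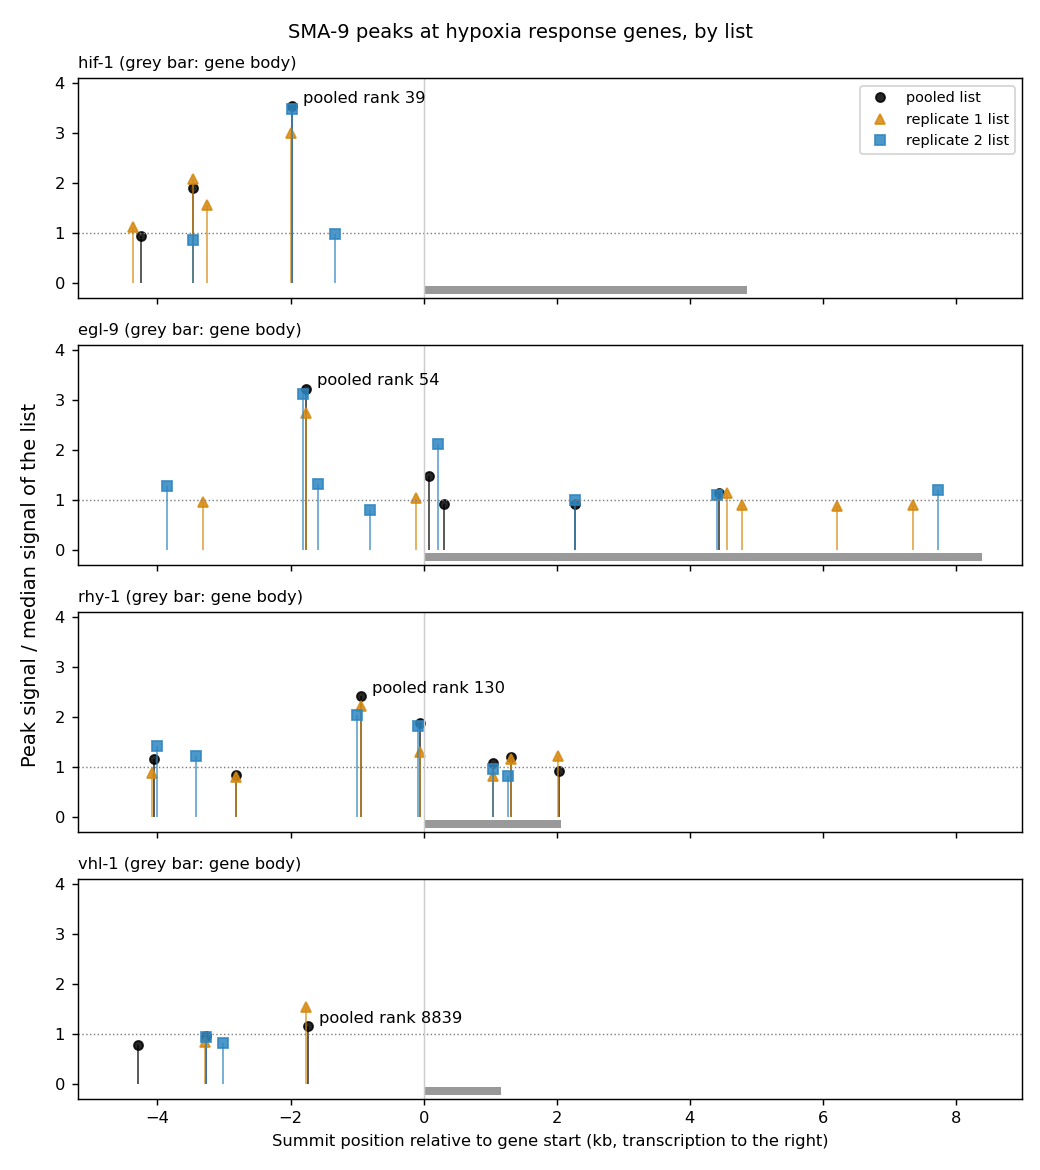
Peaks of each list at hif-1, egl-9, rhy-1 and vhl-1. The x axis is the summit's distance from the gene start in kb, the y axis is peak signal divided by the median signal of its list, the dotted line is that median, and the grey bar is the gene body. The tallest peaks of hif-1 and egl-9 stand 1983 and 1762 bp upstream and reach 2.74 to 3.54 times the median in all 3 lists. The vhl-1 peaks have 0.773 to 1.15 times the median in the pooled list, the lowest of them at rank 29975 of 30000.

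Of the 18 pooled peaks, 11 (61.1%) had a summit upstream of the gene start and 7 in the gene body, and the strongest peak of each gene was upstream. The upstream share is close to the 61.9% of all 49461 pairings of a pooled peak with a coding gene's window, and upstream sequence made up 54.8% of the 4 windows. Among thresholded peaks, 120 of the 171 pairings of a thresholded peak with a coding gene's window were upstream, at a median distance of 2432 bp from the start, and 88 of these were beyond 1 kb. The distances of 1983 bp at hif-1 and 1762 bp at egl-9 are below that median. The windows end 5 kb upstream, and the next pooled peaks outside lay 10859 bp (hif-1), 7379 bp (egl-9), 7718 bp (rhy-1) and 7271 bp (vhl-1) upstream. Their signals were 16.3, 21.7, 23.1 and 13.7 in that order, all below the strongest peak of hif-1, egl-9 or rhy-1. Past the gene end, the nearest pooled peak was 442 bp beyond hif-1, with a signal of 18.1 (rank 5481).

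Windows of longer genes can hold more peaks, so the strongest signal of each gene was also set beside coding genes with windows of similar length, within 10%. Among 2126 such genes, 8 had a stronger best peak than hif-1 (window 9854 bp). For egl-9 (13399 bp) 5 of 813 did, and for rhy-1 (7070 bp) 36 of 6897. For vhl-1 (6163 bp) 3089 of 7239 did, which puts it near the middle of its group. Over all protein-coding genes, the best signal was lower than that of hif-1 in 99.7%, of egl-9 in 99.7%, of rhy-1 in 99.2% and of vhl-1 in 52.4%. The gene windows of divergent or nested neighbours share peaks and are not independent.

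**Figure D2:**
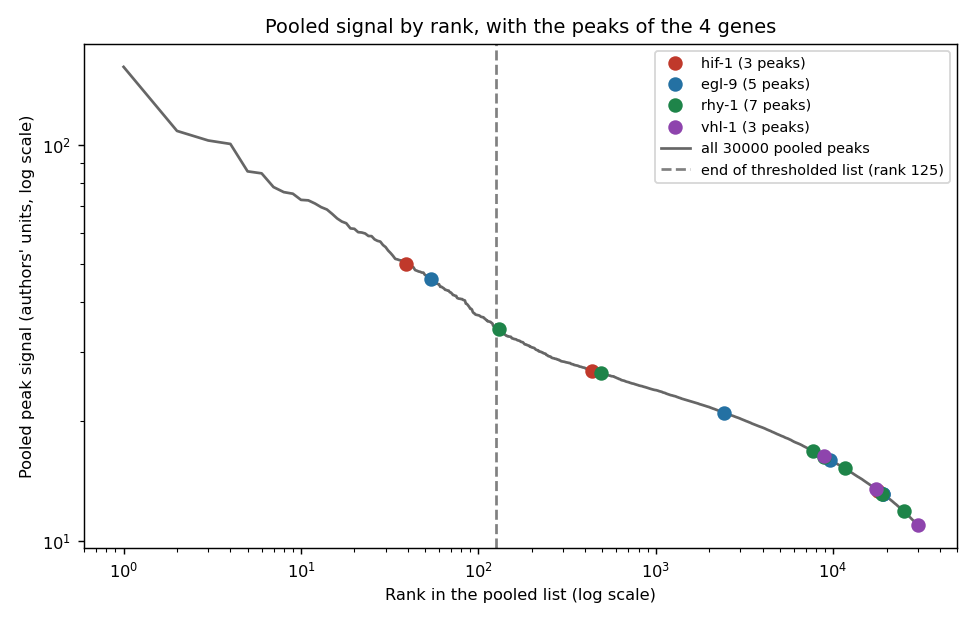
Pooled peak signal against rank, both on log scales, for all 30000 pooled peaks (line) and the 18 peaks of the 4 genes (points). The dashed line marks the end of the thresholded list at rank 125; the peaks of hif-1 (rank 39) and egl-9 (rank 54) lie before it and that of rhy-1 (rank 130) directly after it.

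The replicates were next compared at these genes. Of the 18 pooled peaks, 15 overlapped a peak of replicate 1 by at least 1 bp, 13 a peak of replicate 2, 11 both and 1 neither. These count pooled peaks, and 1 replicate peak could match more than 1 of them. The rhy-1 peaks of rank 7700 and 11630 shared their match in both replicates. The egl-9 peaks of rank 2434 and 19045 shared theirs in replicate 2. Over all 30000 pooled peaks, 69.5% overlapped a peak of replicate 1, 56.7% a peak of replicate 2, 33.8% both and 7.58% neither. Presence in a list of this length is therefore frequent for any pooled peak, and ranks are given beside it. With each replicate's own 125 strongest peaks in place of the thresholded list, hif-1 and egl-9 were again the 2 genes of the 4 with a summit in the window. The shares of all protein-coding genes were 0.756% with replicate 1 and 0.931% with replicate 2. The pooled and thresholded lists come from the reads of these same replicates, so finding the 2 genes again is not independent support. Of the 125 thresholded peaks, 41 matched a peak of rank 125 or better in both replicates, and those of hif-1 and egl-9 are among them. The median rank of the thresholded peaks was 66 in replicate 1 and 103 in replicate 2, over the 125 and 120 that were present. At both hif-1 and egl-9 the peak stood higher in replicate 2 than in replicate 1. In the other direction, 3 of 20 peaks of replicate 1 and 5 of 19 peaks of replicate 2 in the 4 windows overlapped no pooled peak. Over the whole lists, 31.1% of replicate 1 peaks and 42.7% of replicate 2 peaks overlapped none. Those of the 4 genes lay at egl-9 (3 in each replicate), at hif-1 (1 in replicate 2) and at rhy-1 (1 in replicate 2).

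**Figure D3:**
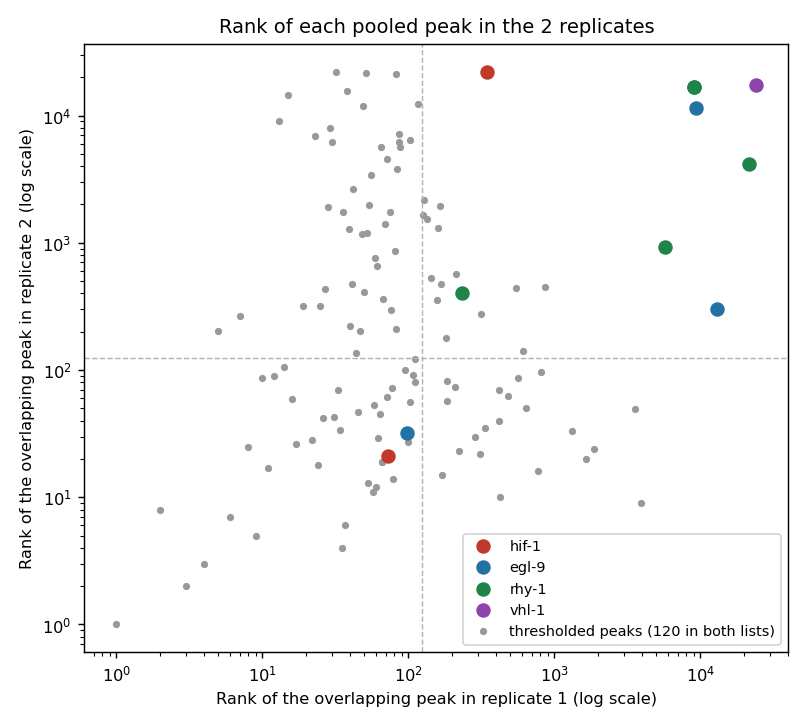
Rank of the overlapping peak in replicate 1 (x axis) and replicate 2 (y axis), both on log scales, for pooled peaks of the 4 genes found in both replicates (coloured) and the 120 thresholded peaks found in both (grey). Dashed lines mark rank 125; the strongest peaks of hif-1 (73 and 21) and egl-9 (98 and 32) fall inside both, and that of rhy-1 (233 and 401) falls outside both.

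The authors' score, in the significance column of the lists, separated hif-1 from egl-9 by a visible margin in replicate 1 only. It was 2.13 at the strongest peaks of both hif-1 and egl-9, the highest value in the pooled list, which 68 peaks share. At the rhy-1 peak it was 0.494 and at the vhl-1 peak -0.0385. In replicate 1 the score was 2.16 at hif-1, a highest value shared by 73 peaks, and 1.44 at egl-9. In replicate 2 both had 2.10 at the digits given, a highest value shared by 63 peaks. By unrounded score hif-1 stood at rank 1 there and egl-9 at rank 49. The score falls below 0 for 68.6% of pooled peaks, so its scale is unknown and it cannot be read as a probability.

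The windows of the strongest peaks held hypoxia response motifs at egl-9, rhy-1 and vhl-1 but not at hif-1. Motifs were searched on both strands in the 200 bp windows, counted from position 1 at the left end of the sequences above, with the summit at position 101. TACGTG was found 2 times at rhy-1, starting at positions 90 and 104. It was found once at egl-9, at position 159, and once at vhl-1, at position 90. Of the 125 thresholded windows 3.20% held TACGTG, and of all 30000 pooled windows 3.89% did. The core ACGTG, which is part of TACGTG and of the E-box CACGTG, occurred 2 times at egl-9, 2 times at rhy-1 and 1 time at vhl-1. Of thresholded windows 32% held it, and of pooled windows 16.1%. GCGTG occurred 2 times at egl-9 (positions 50 and 62), a motif in 40% of thresholded and 9.79% of pooled windows. Neither window of hif-1 shown above held any of these 3 motifs. The window of the second egl-9 peak, of rank 2434, held none of the 3 either. That of the second vhl-1 peak, of rank 17497, held GCGTG at position 48. At the second rhy-1 peak, by the gene start, the E-box CACGTG was present at position 45, a motif in 19.2% of thresholded and 3.40% of pooled windows.

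GAGAGA was repeated at hif-1 and egl-9. It occurred 4 times in the hif-1 window of rank 39, all as TCTCTC on the plus strand, and 3 times in the egl-9 window of rank 54, where 2 of the matches overlap. The second hif-1 window, of rank 438, held it 1 time. It was present in 55.2% of thresholded windows and 10.4% of pooled windows. The rhy-1 window of rank 130 and the vhl-1 window of rank 8839 held none. At the second peaks, the rhy-1 window of rank 492 held GAGAGA 1 time and the egl-9 window of rank 2434 held none. GTCT, a short SMAD recognition core, was present in the windows of rank 39 (3 sites), 54 (6 sites), 130 (2 sites) and 8839 (3 sites). It is common, being held by 88.8% of thresholded and 60.7% of pooled windows. The rhy-1 window of rank 492 held 4 GTCT sites, and the windows of rank 438 (hif-1) and 2434 (egl-9) held none. GGCGCC, the GC-rich SMAD site, was in the second hif-1 window alone of the 5 shown, as in 11.2% of thresholded and 1.27% of pooled windows. GGGCGG was in the rhy-1 window of rank 130 (14.4% of thresholded and 2.83% of pooled windows), which also held TGATAA 2 times (12.8% and 20.0%). AGATAA was in none of the 5 windows, against 12.8% of thresholded and 12.7% of pooled windows.

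The strongest-peak windows of hif-1, egl-9 and rhy-1 were richer in G and C than the average pooled window, which bears on how often such motifs occur. GC content was 48.5% at hif-1, 46% at egl-9 and 44% at rhy-1, whereas it was 35.5% at vhl-1. Thresholded windows averaged 46.2% ± 7.30 and all pooled windows 34.7% ± 6.84 (SD over 125 and 30000 windows). The part of base composition in the motif counts was not tested, and a match is a description of letters, not of a bound site.

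Other genes of the hypoxia pathway had weaker peaks than hif-1 and egl-9. A thresholded summit lay in the window of 2 of the 4 genes above, 1 of 18 other listed genes and 0.766% of all protein-coding genes. A best pooled peak of rank 1000 or better was found at 3 of the 4 genes and at 4 of the 18, and at 7.28% of all protein-coding genes. The median best signal was 40.0 over the 4 genes, 18.0 over the 18 and 16.0 over all coding genes, where a gene without a peak counts as 0. Median window length was 8462 bp, 7993 bp and 7027 bp in the same order. Because the 4 genes were selected on signal and rank in these same lists, higher values for them are built into the comparison. Whether binding differs between the 4 genes and the rest of the pathway was not tested.

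Among the partners of HIF-1 and its destruction, aha-1, which encodes the partner of HIF-1 related to vertebrate ARNT, had a best signal of 18.1 (rank 5594). Its summit was 39 bp upstream of the gene, and no peak of replicate 2 overlapped the peak. The ubiquitin ligase genes cul-2, rbx-1 and elb-1 had best signals of 20.8 (rank 2613), 19.3 (rank 3933) and 12.7 (rank 20782), and elc-1 had no pooled peak in its window. The ranks in replicate 1 and replicate 2 were 22596 and 1878 at cul-2 and 3272 and 12862 at rbx-1. At elb-1 no peak of replicate 2 overlapped. Of the genes that act on EGL-9, cysl-1, whose product inhibits EGL-9, had 19.6 (rank 3659), 438 bp upstream. swan-1, which encodes a WD-repeat protein that binds EGL-9, had 18.0 (rank 5736). The replicate ranks were 1129 and 7148 at cysl-1, and at swan-1 no peak of replicate 2 overlapped. The highest of these 7 genes, cul-2 at 20.8, was below the strongest peaks of hif-1, egl-9 and rhy-1.

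Downstream of HIF-1, nhr-46, a nuclear hormone receptor gene that acts after egl-9 and hif-1 with the cytochrome gene cyp-36A1, had the thresholded peak. Its signal was 37.2 (rank 98), with the summit 3656 bp into the gene body, and the ranks were 158 in replicate 1 and 356 in replicate 2. cyp-36A1 itself had 14.1 (rank 15012), with no overlapping peak in replicate 2. Of the genes regulated by HIF-1 in iron handling, the metal transporter gene smf-3 had 30.9 (rank 198) in the gene body, and the ferritin gene ftn-1 had 20.8 (rank 2584), 3618 bp upstream. The replicates differed at both genes. The ranks in replicate 1 and replicate 2 were 429 and 7914 at smf-3 and 28910 and 1213 at ftn-1. F22B5.4, a gene induced by HIF-1, had 29.2 (rank 251), but the replicates differed, with rank 7291 in replicate 1 and 75 in replicate 2. phy-2, which encodes a collagen prolyl hydroxylase, had 25.0 (rank 729), with rank 1375 in replicate 1 and 4185 in replicate 2.

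The remaining HIF-1-regulated genes stood near the middle of all coding genes or below it. cysl-2 and dhs-8 share 1 divergent peak, with a signal of 17.4 (rank 6719). cdo-1, which encodes cysteine dioxygenase, had 16.0 (rank 9525), with rank 274 in replicate 2 and no overlapping peak in replicate 1. nhr-57, a widely used reporter of HIF-1 activity, had 13.8 (rank 16272), and sqrd-1, which encodes sulfide quinone oxidoreductase, had 12.5 (rank 21769). At sqrd-1 no peak of replicate 2 overlapped.

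**Figure D4:**
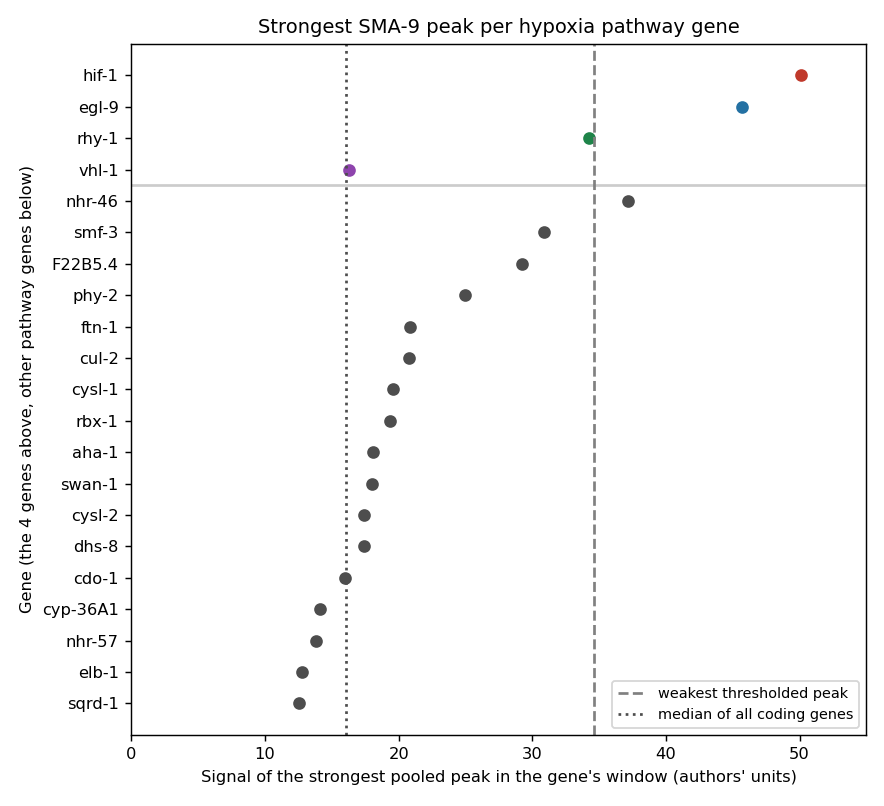
Signal of the strongest pooled peak in each gene's window for the 4 genes (above the line) and for the 17 other pathway genes with a peak (below it); elc-1 had none. The dashed line is the weakest thresholded peak, at 34.6, and the dotted line is the median of all coding genes, at 16.0; hif-1, egl-9 and nhr-46 lie to the right of the dashed line.

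Coding genes whose strongest thresholded peak was nearest in pooled signal were listed for hif-1 and egl-9, with the difference in signal as the measure of likeness. For hif-1 these were F38A6.4 and F38A6.5, which share its peak, then F48C1.3 (49.2, rank 42), nhr-19 (51.0, rank 37) and T28B11.1 (49.1, rank 43). For egl-9 these were F22E12.3, which shares its peak, then letm-1 and lpin-1, which share a peak of rank 55 (45.2), W01C8.5 (45.2, rank 56) and hex-1 (45.1, rank 57). Among the listed genes with a peak of their own, support by the replicates was mostly less even than at hif-1 and egl-9. The ranks in replicate 1 and replicate 2 were 27 and 436 at F48C1.3, 59 and 763 at nhr-19, 41 and 473 at T28B11.1, 36 and 1750 at W01C8.5, and 3914 and 9 at hex-1. The exception among these listed genes was the peak of letm-1 and lpin-1, at ranks 77 and 72. Even support is not particular to hif-1 and egl-9. Of the 125 thresholded peaks, 41 matched a peak of rank 125 or better in both replicates. Near in pooled rank, the peaks of rank 40 (58 and 53) and 53 (71 and 61) were even, whereas that of rank 52 (424 and 10) was not.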

How the data were processed

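ChIP-seq of eGFP-tagged SMA-9 was done in 2 biological replicates of 1 group, numbered per the labels. The authors deposited relaxed peak lists (30000 peaks) per replicate and for pooled reads, and a thresholded list of 125 peaks; per the file descriptions these were made for the irreproducible discovery rate procedure. Neither the aligner nor the peak caller is named in the labels or files read here. The signal of each peak (column 7) and its score (column 9) are the authors' deposited values, of unstated scale. The thresholded list was checked to be the 125 strongest pooled peaks. All peaks have 1 width per list (360 bp in replicate 1, 384 bp in the others) with the summit at the centre. The ce10 lists were not used here.

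Summits were assigned to windows of the gene body plus 5 kb upstream (Ensembl release 115, WBcel235, the coordinates of ce11; 1-based) in Python 3.11.15. A pooled peak was matched to the strongest peak of a replicate overlapping it by at least 1 bp. Sequence windows were 200 bp. The window search was tested on simulated data and found 200 of 200 planted summits. No statistical test was made. The genes, lists and motifs were chosen with earlier results of these data known. Genes are named by rule: the 4 genes, 18 other pathway genes, genes sharing a peak, neighbours, and the 5 coding genes nearest in signal to hif-1 and to egl-9. Alternatives changed the window, the match, the threshold, the ranking column and the replicate used.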

Additional observations from a re-analysis of the deposited data

How the results depend on the processing

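The count of 2 genes with a thresholded summit, hif-1 and egl-9, was also 2 with 2 kb upstream, with any overlap of 1 bp, with the stronger part of the thresholded list (62 peaks), and with either replicate alone (2 to 2 genes), and 0 with the gene body only. The counts with either replicate alone are not independent of the thresholded list, which comes from the same reads. Among genes of every class the count of 398 was 211 with 2 kb upstream, 72 with the gene body only and 206 with the stronger part of the list, and 359 to 408 with either replicate alone. The best rank was 21 to 73 for hif-1, 32 to 98 for egl-9, 233 to 401 for rhy-1 and 2244 to 17416 for vhl-1 with one replicate left out. In the gene body only it was 2434 for egl-9 and 7700 for rhy-1, and hif-1 and vhl-1 had no value. By score it was 1 for hif-1 and for egl-9, shared with other peaks, and 402 for vhl-1, at the peak of rank 29975 by signal, since score and signal do not fall together among weak peaks. The count of 11 pooled peaks found in both replicates was 10 with summits within 200 bp. No paired analysis was possible because there is 1 group. Read depth is unknown, so the precision of a single signal cannot be given.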
